A study of Homo sapiens with 28 samples.

Results

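Untreated H596 cells were compared with untreated H2009 cells, which are both human lung cancer lines kept in culture. The 4 libraries of this comparison are the 2 of untreated H596 and the 2 of untreated H2009 among the 28 samples of a study on RUVBL1, an ATPase of chaperone and chromatin-remodelling complexes. The study followed RUVBL1 knockdown and compounds named B and C in the 2 lines. These 4 libraries received neither, so they show how the lines differed without treatment. The labels give NCI-H596 for one group and NCI-H2009 for the other, with no agent in either. They give the same tissue (a non-small cell lung cancer), the same histology (adenocarcinoma), a wild-type genotype and an unknown passage for both lines. Repositories of cell lines list H596 as an adenosquamous carcinoma, which is given here as background. Cells of either line were plated in a dish and lysed on it, poly(A) RNA was sequenced with a stranded kit, and the authors deposited FPKM, which counts fragments per length of the transcript and per size of the library, for each gene. The compound table lists 13481 genes, and each of them reaches 1 FPKM in at least 1 of its 12 libraries. The 12651 genes with a mean of at least 1 FPKM in 1 or both lines were compared, as log2(FPKM + 1), H596 minus H2009.

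Lung adenocarcinomas often keep the programme of the distal airway and alveolus, in which the transcription factor NKX2-1 drives surfactant genes. Squamous tumours often carry the programme of the basal cells of stratified epithelia, in which TP63, with SOX2, goes with keratins of basal and suprabasal layers, desmosomal cadherins and the proteins of the cornified envelope. A line can also hold a mesenchymal programme beside an epithelial one, seen in vimentin, matrix genes and the receptor AXL.

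Genes on which the comparison turns are introduced here by the 300 bases around their annotated start, to show the promoters of genes that lay far apart between the lines. The sequences are RefSeq's for GRCh38.p14, given on the gene's strand, with matches to 4 strings in capitals on either strand: TATAAA, the core of a TATA box, GGGCGG, the core of a GC box, TGACTCA, the letters bound by AP-1, and CAGGTG, an E-box. KRT5 is at chr12:52520345-52520644 on the minus strand, SPRR1B at chr1:153030953-153031252 and IVL at chr1:152908296-152908595 on the plus strand; these are genes of the squamous programme that were higher in H596. NKX2-1 is at chr14:36520183-36520482 on the minus strand, VIM at chr10:17227991-17228290 and GSTP1 at chr11:67583562-67583861 on the plus strand. These were at about 1 FPKM or less in H596. B2M, the shared chain of class I molecules, is at chr15:44711267-44711566 on the plus strand. NKX2-1 has more than 1 start in the RefSeq table, and the first listed is shown.
KRT5: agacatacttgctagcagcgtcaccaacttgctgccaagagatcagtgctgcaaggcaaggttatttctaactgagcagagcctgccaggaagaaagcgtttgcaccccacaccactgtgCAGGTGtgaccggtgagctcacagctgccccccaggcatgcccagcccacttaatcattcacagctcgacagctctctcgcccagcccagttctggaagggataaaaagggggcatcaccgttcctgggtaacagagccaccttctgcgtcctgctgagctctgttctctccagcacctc
SPRR1B: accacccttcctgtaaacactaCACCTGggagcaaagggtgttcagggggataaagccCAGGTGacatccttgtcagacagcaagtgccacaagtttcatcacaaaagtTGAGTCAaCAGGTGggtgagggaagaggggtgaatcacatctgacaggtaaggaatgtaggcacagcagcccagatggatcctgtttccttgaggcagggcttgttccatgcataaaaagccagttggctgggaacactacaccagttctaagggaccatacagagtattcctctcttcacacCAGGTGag
IVL: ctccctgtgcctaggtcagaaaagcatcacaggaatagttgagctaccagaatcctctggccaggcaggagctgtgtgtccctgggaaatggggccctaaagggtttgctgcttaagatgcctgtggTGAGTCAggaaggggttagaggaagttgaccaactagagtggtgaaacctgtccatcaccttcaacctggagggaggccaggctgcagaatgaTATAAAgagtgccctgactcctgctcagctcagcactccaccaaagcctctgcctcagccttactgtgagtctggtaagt
NKX2-1: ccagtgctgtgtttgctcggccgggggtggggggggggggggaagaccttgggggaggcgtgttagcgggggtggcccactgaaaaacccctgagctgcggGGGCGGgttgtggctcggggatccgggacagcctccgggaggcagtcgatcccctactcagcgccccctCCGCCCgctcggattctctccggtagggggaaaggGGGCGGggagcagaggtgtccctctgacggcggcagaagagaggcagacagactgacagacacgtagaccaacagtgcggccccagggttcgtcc
VIM: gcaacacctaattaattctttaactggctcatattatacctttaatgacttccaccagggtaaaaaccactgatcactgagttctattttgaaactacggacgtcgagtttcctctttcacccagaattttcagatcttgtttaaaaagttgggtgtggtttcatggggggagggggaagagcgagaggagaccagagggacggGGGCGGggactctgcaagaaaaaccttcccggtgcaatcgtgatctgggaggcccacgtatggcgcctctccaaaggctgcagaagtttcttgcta
GSTP1: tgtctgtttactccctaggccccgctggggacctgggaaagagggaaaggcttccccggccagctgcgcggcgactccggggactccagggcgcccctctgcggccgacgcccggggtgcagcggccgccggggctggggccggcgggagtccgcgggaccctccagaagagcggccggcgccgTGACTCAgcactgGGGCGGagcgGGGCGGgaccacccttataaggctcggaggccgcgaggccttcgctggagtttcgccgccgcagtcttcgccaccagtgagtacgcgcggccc
B2M: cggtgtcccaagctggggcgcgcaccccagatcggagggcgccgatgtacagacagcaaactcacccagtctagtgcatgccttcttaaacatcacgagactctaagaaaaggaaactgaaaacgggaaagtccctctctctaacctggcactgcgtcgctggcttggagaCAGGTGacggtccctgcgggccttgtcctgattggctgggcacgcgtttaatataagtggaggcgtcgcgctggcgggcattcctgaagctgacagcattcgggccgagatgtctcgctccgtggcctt

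SPRR1B held 4 CAGGTG and 1 TGACTCA in this window, and IVL held 1 TATAAA and 1 TGACTCA. KRT5 and B2M held 1 CAGGTG each. NKX2-1 held 3 GGGCGG, GSTP1 held 2 with 1 TGACTCA, and VIM held 1. Over all 35116 promoter windows of the RefSeq table, 11.5% held TATAAA, 45.0% GGGCGG, 4.95% TGACTCA and 20.6% CAGGTG. The SPRR1B and IVL windows held no CpG at all, the KRT5 window held 7, the NKX2-1 window 21 and the GSTP1 window 36. These matches describe letters and not bound sites.

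The 4 libraries were alike in their broad features. The listed FPKM of a library summed to between 579125 and 632540, its 10 highest genes held 7.49% to 11.5% of that sum, and 213 to 288 of the 13481 genes were listed at 0. Across the genes tested, log2(FPKM + 1) of the 2 libraries of a line correlated with r of 0.978 in H596 and 0.973 in H2009, and between the lines r ran from 0.795 to 0.833. The read depth behind the values is unknown. The labels do not say that the 2 libraries of a line came from separate cultures, so every p-value below measures the spread between libraries, which may be technical. Because these are bulk samples, fewer cells of a type and less RNA per cell cannot be told apart.

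The lines differed widely. Of the 12651 genes, 5505 passed limma's moderated test at a Benjamini-Hochberg adjusted p of 0.05, which is 43.5% and is the background for every list that follows. In H596, 3078 genes (24.3%) were higher and 2427 (19.2%) were lower. Of the 10513 with a mean of at least 1 FPKM in both lines, 20.1% were higher and 14.7% lower, which is the background for counts over such genes. Past a 2-fold difference as well, 2026 (16.0%) were higher and 1553 (12.3%) lower. The difference reached 4 on the log2 scale for 121 higher and 66 lower genes, and the median absolute difference over all genes was 0.63. The median signed difference was 0.08.

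**Figure D1:**
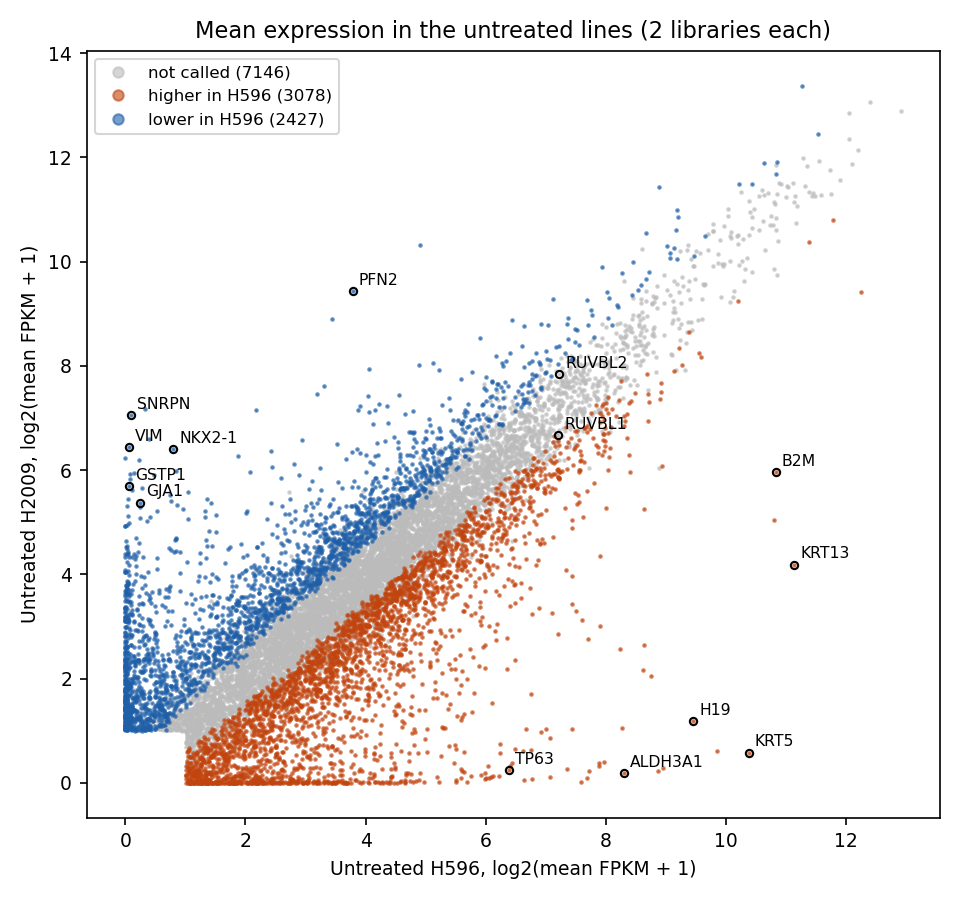
Mean of the 2 untreated libraries of each line for the 12651 genes tested, with H596 on the horizontal and H2009 on the vertical axis, both as log2(mean FPKM + 1). Points are coloured by the call at an adjusted p of 0.05 (3078 higher in H596, 2427 lower, 7146 not called), and KRT5, TP63 and H19 lie at the bottom right, while SNRPN, VIM and NKX2-1 lie at the top left.

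The same comparison was made between treated cells of the lines, in libraries whose levels do not enter the untreated differences. H596 and H2009 cells were also sequenced after 100 nM of compound C or of compound B for 1 day. All 12 libraries were fitted together and share 1 estimate of the spread per gene, so the calls are not independent; with only the 4 untreated libraries fitted, 4493 genes were called in place of 5505. Of the 3078 genes higher in untreated H596, 3058 could be tested in the compound C libraries, and 2820 were called higher and 0 called lower there; of 3039 tested in the compound B libraries, 2499 were called higher and 10 called lower. Of the 2427 lower genes, 2273 of 2395 were called lower and 1 higher with compound C, and 1942 of 2328 were called lower and 1 higher with compound B. The single gene called the other way with compound C was EEF1A1, a translation factor at high levels in every cell, which is listed at 0 in both H2009 compound C libraries; it is named because it is the exception. The lines were also sequenced after a non-targeting siRNA, in a table for each line that was normalized apart, so no test was made between them. Among genes that both of those tables list, 2119 of 2265 higher and 1435 of 1703 lower genes had a difference of the same sign. Over the whole comparison 44.3% of 12671 genes were called with compound C (23.9% higher in H596 and 20.4% lower) and 47.1% of 12943 with compound B (25.2% higher and 21.9% lower). In 2667 of the 3078 higher and 2150 of the 2427 lower genes, all 6 H596 libraries lay on the same side of all 6 H2009 libraries, against 23.9% above and 20.1% below over all genes tested. These 12 libraries include the 4 untreated ones by which the genes were called. The share is thus partly set by that choice, and the genes called are also part of all genes tested.

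Keratin, cornified envelope and secreted genes led the genes that were higher in H596. KRT5, the basal keratin, had 1452 and 1212 FPKM in the H596 libraries, against 0.186 and 0.806 FPKM in the H2009 libraries. By mean FPKM it ranked 67 among the genes of H596, and H2009 had almost none, a difference of 9.83 ± 0.25 (SE) on the log2 scale with a limma adjusted p of 2.49e-08. IGFBP3, which binds insulin-like growth factors, had 1032 and 813 FPKM in H596, against 0.415 and 0.643 FPKM in H2009. CSTA, a cystatin of the cornified envelope, had 498 and 489 FPKM in H596, against 0.0880 and 0.353 FPKM in H2009. Both were absent or nearly so in H2009, with differences of 9.23 ± 0.28 and 8.67 ± 0.19. KRT4, a keratin of mucosal epithelia, had 581 and 359.6 FPKM in H596, against 0.134 and 0.203 FPKM in H2009. The imprinted non-coding RNA H19 had 889.5 and 514 FPKM in H596, against 1.27 and 1.29 FPKM in H2009. The differences were 8.62 ± 0.37 and 8.22 ± 0.40, and in neither gene did the libraries of the lines overlap. The remaining 7 of the 12 highest, ALDH3A1, SERPINB2, AQP3, KRT6A, S100A9, SLPI and ANXA10, had log2 differences of 7.46 to 8.06.

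At the other end, the genes lowest in H596 came from several groups. SNRPN, an imprinted gene of a splicing protein, had 0.0933 and 0.0451 FPKM in the H596 libraries, against 114 and 150.5 FPKM in the H2009 libraries. H596 held almost none of it, and the difference was -6.95 ± 0.26 with a limma adjusted p of 9.25e-08; it overlaps SNURF, so the 2 can share reads. CST6, a cystatin, had 0.315 and 0.200 FPKM in H596, against 185 and 103 FPKM in H2009. VIM, the mesenchymal intermediate filament, had 0.0618 and 0.0163 FPKM in H596, against 94.4 and 77.7 FPKM in H2009. CDA, cytidine deaminase, had 0.430 and 0.197 FPKM in H596, against 121 and 71.2 FPKM in H2009. These 3 genes were under 0.5 FPKM in both H596 libraries and abundant in both of H2009, with differences of -6.79, -6.38 and -6.16. G0S2, an inhibitor of lipolysis, was listed at 0 in both H596 libraries and had 107 and 41.03 FPKM in H2009. LCP1, an actin bundler of blood cells, had 0.198 and 0.128 FPKM in H596, against 73.8 and 69.8 FPKM in H2009. GSTP1, a glutathione transferase, had 0.0462 and 0.0319 FPKM in H596, against 66.9 and 34.8 FPKM in H2009. PFN2, a profilin, was the exception among the 12 lowest in keeping a clear level in H596, with 16.5 and 9.09 FPKM in H596, against 732 and 652 FPKM in H2009. The metallothionein MT1E and the meiotic gene MEIOB were under 0.2 FPKM in both H596 libraries, with differences of -5.77 and -5.74.

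The squamous and basal genes differed in 1 direction throughout. Of 38 listed, 30 were in the table and 29 could be tested; all 29 were called higher in H596, at a median log2 difference of 3.33, against 24.3% and 0.08 over all genes tested. Of the 29, 17 passed the filter through H596 alone and so had to differ; the 12 with a mean of at least 1 FPKM in both lines were also called higher, where 20.1% of all such genes were. The remaining member in the table, SPRR2D, was too low in both lines to test, and 8 listed genes are not in the table. Leaving out any 1 of the 4 libraries left 28 or 29 of the 29 called.

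The transcription factors of the squamous programme were all higher. TP63, the p63 factor of basal cells, had 88.3 and 77.5 FPKM in the H596 libraries, against 0.130 and 0.236 FPKM in the H2009 libraries. Both H596 libraries were far above both of H2009, with a difference of 6.15 ± 0.19 and a limma adjusted p of 3.76e-08. SOX2 had 53.3 and 45.7 FPKM in H596, against 9.07 and 10.6 FPKM in H2009. SOX15 had 84.2 and 86.1 FPKM in H596, against 27.2 and 15.8 FPKM in H2009. Both were thus present in H2009 as well, and the differences of 2.22 ± 0.21 and 1.99 ± 0.31 were steps in level. BNC1, a factor of keratinocytes, had 6.20 and 8.33 FPKM in H596, against 0.0422 and 0.0445 FPKM in H2009.

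Among the keratins of the squamous and basal list, the largest difference after KRT5 was in KRT6A, a keratin of stressed and suprabasal epithelium, with 217 and 204 FPKM in the H596 libraries, against 0.0841 and 0.256 FPKM in the H2009 libraries; its near-identical copy KRT6B was at 1.05 and 1.57 FPKM in H596 and listed at 0 in both H2009 libraries, and reads of the 2 may be shared. KRT13, of suprabasal mucosa, had 2834 and 1682 FPKM in H596, against 15.8 and 18.6 FPKM in H2009, which made it the most abundant keratin of the list in H596. KRT17 had 117 and 96.8 FPKM in H596, against 0.746 and 0.352 FPKM in H2009. KRT15 had 81.9 and 35.1 FPKM in H596, against 3.03 and 4.49 FPKM in H2009. KRT14, the usual partner of KRT5 in basal cells, had only 8.36 and 11.4 FPKM in H596, against 0.839 and 0.439 FPKM in H2009. In FPKM, which is per length, KRT14 was thus far below KRT5 in H596, and KRT13 was above it.

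Adhesion and envelope genes followed. DSG3, a desmosomal cadherin, had 58.5 and 35.5 FPKM in H596, against 0.0651 and 0.0622 FPKM in H2009. FAT2, an atypical cadherin, had 10.5 and 9.79 FPKM in H596, against 0.0614 and 0.105 FPKM in H2009. CLCA2 had 10.4 and 8.09 FPKM in H596, against 0 and 0.0234 FPKM in H2009. All 3 were absent from H2009 to within 0.2 FPKM, with differences of 5.45, 3.36 and 3.33. SPRR1B, a small proline-rich protein of the envelope, had 115 and 138 FPKM in the H596 libraries, against 1.17 and 0.938 FPKM in the H2009 libraries. IVL, involucrin, had 8.06 and 8.43 FPKM in H596, against 0.0969 and 0.176 FPKM in H2009. S100A2 had 1908 and 1673 FPKM in H596, against 37.8 and 26.1 FPKM in H2009. TRIM29 had 237 and 109 FPKM in H596, against 1.27 and 0.853 FPKM in H2009. Each of the 4 was higher in both H596 libraries than in either of H2009, by 5.95, 3.03, 5.78 and 6.30. SERPINB13 had 41.6 and 59.1 FPKM in H596, against 0.0352 and 0 FPKM in H2009. SFN, the 14-3-3 protein sigma, was abundant in both lines, with 495 and 348 FPKM in H596, against 207 and 109 FPKM in H2009; its difference of 1.46 ± 0.42 lost its call without H596 replicate 1 (limma adjusted p = 0.117) or without H2009 replicate 2 (0.14).

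**Figure D2:**
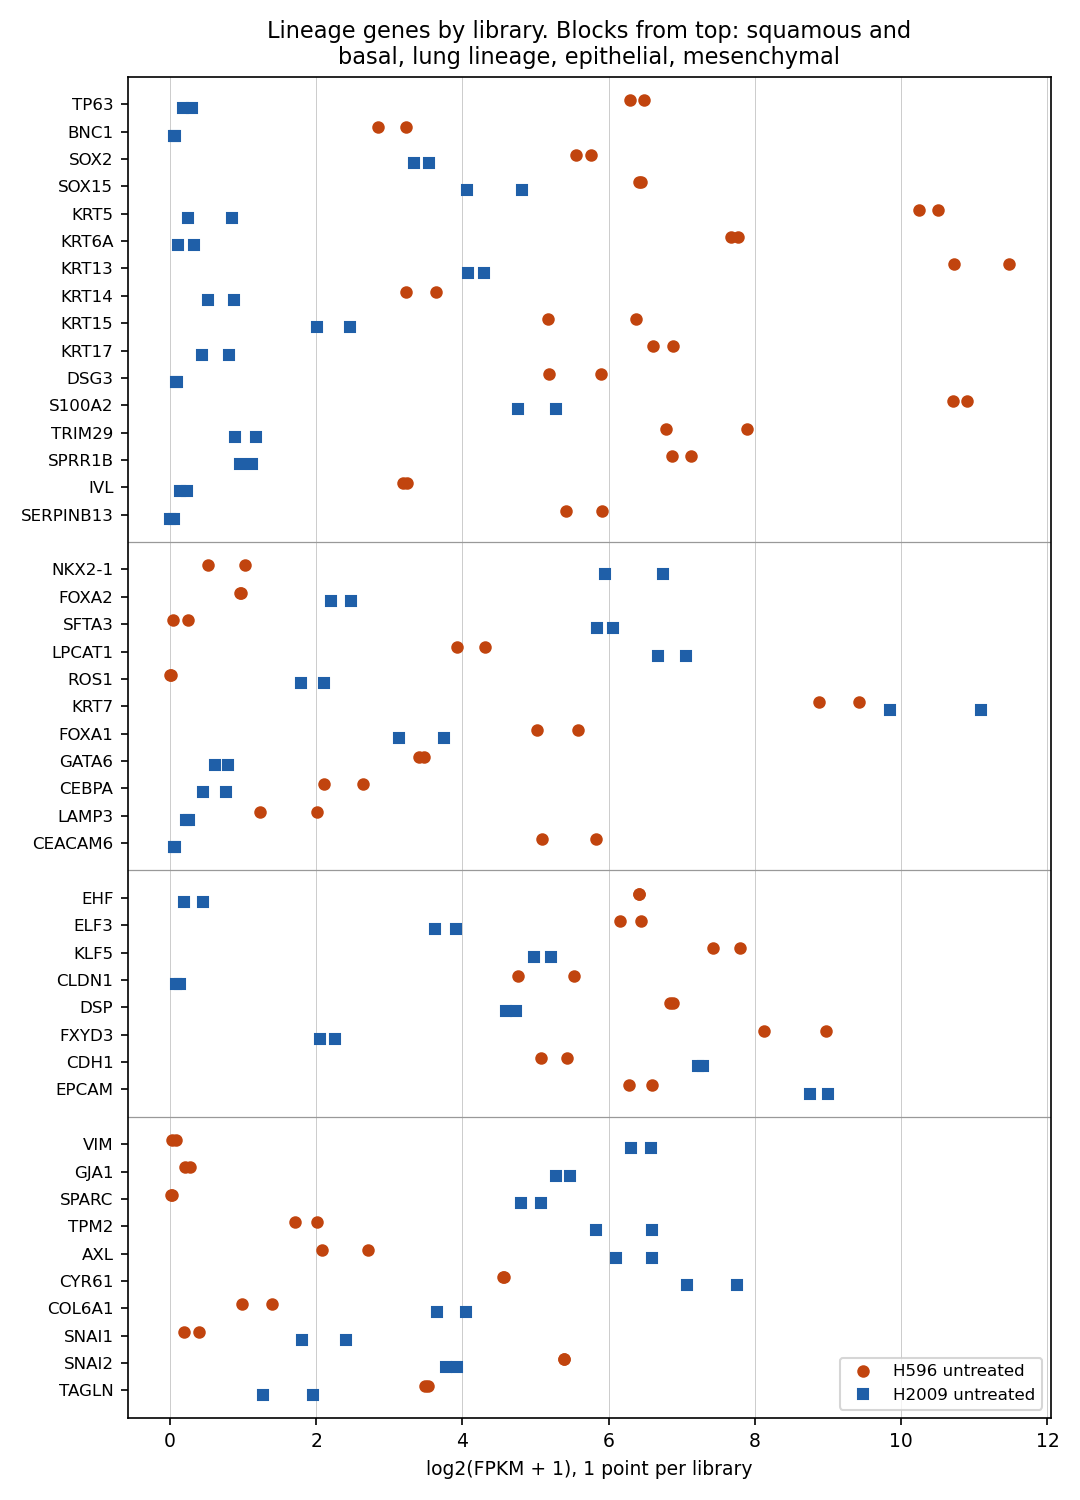
Values of each library, as log2(FPKM + 1), for genes of the squamous and basal, lung lineage, epithelial and mesenchymal lists, with H596 as circles above H2009 as squares in each row. The squamous and basal genes lie to the right in H596. NKX2-1 lies low in H596, and SFTA3, VIM, GJA1 and SPARC lie near 0 in it, while SNAI2 and TAGLN are higher in it.

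The lung lineage list did not move as a block. Of 25 listed genes 11 were in the table, and all 11 were called, 5 higher and 6 lower in H596, with a median difference of -1.32. Only 3 of the 11 had a mean of at least 1 FPKM in both lines, 1 of them higher and 2 lower. The other 14, which include the surfactant genes SFTPA1, SFTPA2, SFTPB, SFTPC and SFTPD, are not in the table, so no level was set for them here. NKX2-1, the factor of thyroid and distal lung, had 1.04 and 0.431 FPKM in the H596 libraries, against 106 and 60.8 FPKM in the H2009 libraries. It was about 1 FPKM or less in H596 and high in both H2009 libraries, with a difference of -5.58 ± 0.35 and a limma adjusted p of 1.57e-06. SFTA3, a surfactant-associated gene beside NKX2-1 in the genome, had 0.183 and 0.0324 FPKM in H596, against 56.3 and 65.6 FPKM in H2009. FOXA2 had 0.956 and 0.951 FPKM in H596, against 4.57 and 3.60 FPKM in H2009. LPCAT1, which makes surfactant lipid, had 18.8 and 14.2 FPKM in H596, against 132 and 101 FPKM in H2009. ROS1, a receptor kinase, had 0 and 0.00774 FPKM in H596, against 2.47 and 3.31 FPKM in H2009. All of these were lower in H596, with log2 differences of -5.80, -1.37, -2.75 and -1.94.

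Other factors of the same list ran the other way. FOXA1, the sister of FOXA2, had 46.9 and 31.4 FPKM in H596, against 12.4 and 7.78 FPKM in H2009. GATA6 had 10.1 and 9.59 FPKM in H596, against 0.736 and 0.528 FPKM in H2009. CEBPA had 5.26 and 3.33 FPKM in H596, against 0.695 and 0.364 FPKM in H2009. These were higher in H596 by 1.86 ± 0.39, 2.74 ± 0.21 and 1.78 ± 0.23. CEACAM6, a surface glycoprotein of airway epithelium, had 55.8 and 33.01 FPKM in H596, against 0.0415 and 0.0493 FPKM in H2009, and LAMP3 had 3.02 and 1.34 FPKM in H596, against 0.203 and 0.159 FPKM in H2009; without H596 replicate 1 the call of LAMP3 was lost (limma adjusted p = 0.0746). KRT7, a keratin of simple epithelium, was abundant in both lines at 687 and 469 FPKM in H596, against 2189.8 and 919.7 FPKM in H2009, and its difference of -1.32 ± 0.48 (limma adjusted p = 0.0483) lost its call without H2009 replicate 1 (0.316), without H596 replicate 1 (0.0729) or without H596 replicate 2 (0.214). In the non-targeting siRNA libraries KRT7 had 849 and 487 FPKM in H596, against 526 and 180.4 FPKM in H2009, where the means had the opposite order and the libraries overlapped; those tables were normalized apart for each line.

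Set beside the shared label of adenocarcinoma, H596 carried the squamous and basal genes with KRT7 and almost no NKX2-1, while H2009 carried NKX2-1, SFTA3 and KRT7 with low levels of most squamous genes. Yet 5 of the 11 lung lineage genes tested, FOXA1, GATA6, CEBPA, CEACAM6 and LAMP3, were higher in H596, and 6 were lower. Of the 12 airway secretory genes tested, given below, 9 were higher in H596 and 3 lower. In its squamous and basal genes and its NKX2-1, H596 goes against a plain reading of the adenocarcinoma label. The line is called by its name throughout. Neuroendocrine genes were nearly absent from the comparison. Of 20 listed only SYT1 and DLL3 were in the table, both lower in H596. Both passed the filter through H2009 alone and so could only be lower. SYT1 had 0.134 and 0.0976 FPKM in H596, against 6.09 and 7.12 FPKM in H2009. DLL3 was listed at 0 in both H596 libraries and at 2.75 and 1.25 FPKM in H2009. Of 24 markers of leukocytes, fibroblasts, endothelium and erythroid cells, 3 were in the table. CD68, which epithelial lines can also express, had 18.5 and 15.2 FPKM in H596, against 6.59 and 5.49 FPKM in H2009.

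Epithelial genes were kept by both lines. All 41 listed genes were tested, 38 of them at 1 FPKM or more in both lines; 17 were higher in H596, 8 lower and 16 not called, with a median difference of 0.66. Called counts were lower without H2009 replicate 1, where 4 were lower in H596, and without H596 replicate 2, where 5 were. EHF, an epithelial ETS factor, had 84.1 and 84.1 FPKM in H596, against 0.138 and 0.362 FPKM in H2009. ELF3 had 86.3 and 70.2 FPKM in H596, against 13.98 and 11.3 FPKM in H2009. KLF5 had 222 and 171 FPKM in H596, against 36.2 and 30.6 FPKM in H2009. These 3 factors were higher in both H596 libraries, by 6.09, 2.54 and 2.51. CLDN1, a tight-junction claudin, had 45.02 and 26.1 FPKM in H596, against 0.0627 and 0.103 FPKM in H2009, and DSP, desmoplakin, had 116 and 113 FPKM in H596, against 25.5 and 23.2 FPKM in H2009. FXYD3 had 503 and 279 FPKM in H596, against 3.16 and 3.77 FPKM in H2009.

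E-cadherin and EPCAM were among the 8 epithelial genes that were lower in H596. CDH1, the E-cadherin gene, had 42.1 and 32.8 FPKM in the H596 libraries, against 156 and 148 FPKM in the H2009 libraries. EPCAM had 95.8 and 76.7 FPKM in the H596 libraries, against 511 and 432 FPKM in the H2009 libraries. No H596 library reached the H2009 values, and the 95% intervals of the log2 differences were -2.53 to -1.47 for CDH1 and -3.04 to -1.84 for EPCAM, with limma adjusted p-values of 1.07e-04 and 6.44e-05.

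Mesenchymal genes were mostly lower in H596. Of 43 listed, 26 were in the table and tested; 16 were lower, 4 higher and 6 not called, with a median of -1.46, against 19.2% lower over all genes. Of the 18 at 1 FPKM or more in both lines, 10 were lower and 4 higher. GJA1, the gap-junction protein connexin 43, had 0.158 and 0.214 FPKM in H596, against 37.98 and 43.3 FPKM in H2009. SPARC, a matrix glycoprotein, had 0.0216 and 0.00928 FPKM in H596, against 26.9 and 32.7 FPKM in H2009. TPM2, a tropomyosin, had 3.03 and 2.28 FPKM in H596, against 95.8 and 55.9 FPKM in H2009. With VIM, these were the largest differences of the list, at -5.13, -4.92 and -4.35. CYR61, a target of YAP, had 22.4 and 22.6 FPKM in H596, against 214 and 134 FPKM in H2009, and COL6A1 had 1.63 and 0.986 FPKM in H596, against 15.6 and 11.6 FPKM in H2009. S100A4 had 14.7 and 14.6 FPKM in H596, against 43.4 and 44.3 FPKM in H2009. In the non-targeting siRNA libraries, normalized apart for each line, the lines overlapped in COL6A1, S100A4 and CYR61. COL6A1 had 6.53 and 3.98 FPKM in H596 there, against 6.58 and 4.15 FPKM in H2009. S100A4 had 18.8 and 10.04 FPKM in H596 there, against 20.2 and 14.3 FPKM in H2009. SPARC and TPM2 stayed lower in H596 there. In the untreated libraries the 2 SNAIL factors differed in opposite directions. SNAI1 had 0.323 and 0.138 FPKM in H596, against 4.30 and 2.51 FPKM in H2009. SNAI2, which basal cells also express, had 40.96 and 40.7 FPKM in H596, against 14.2 and 12.7 FPKM in H2009. The differences were -1.81 ± 0.29 and 1.54 ± 0.20. TAGLN was also higher in H596, with 10.6 and 10.2 FPKM in H596, against 2.87 and 1.41 FPKM in H2009.

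**Figure D3:**
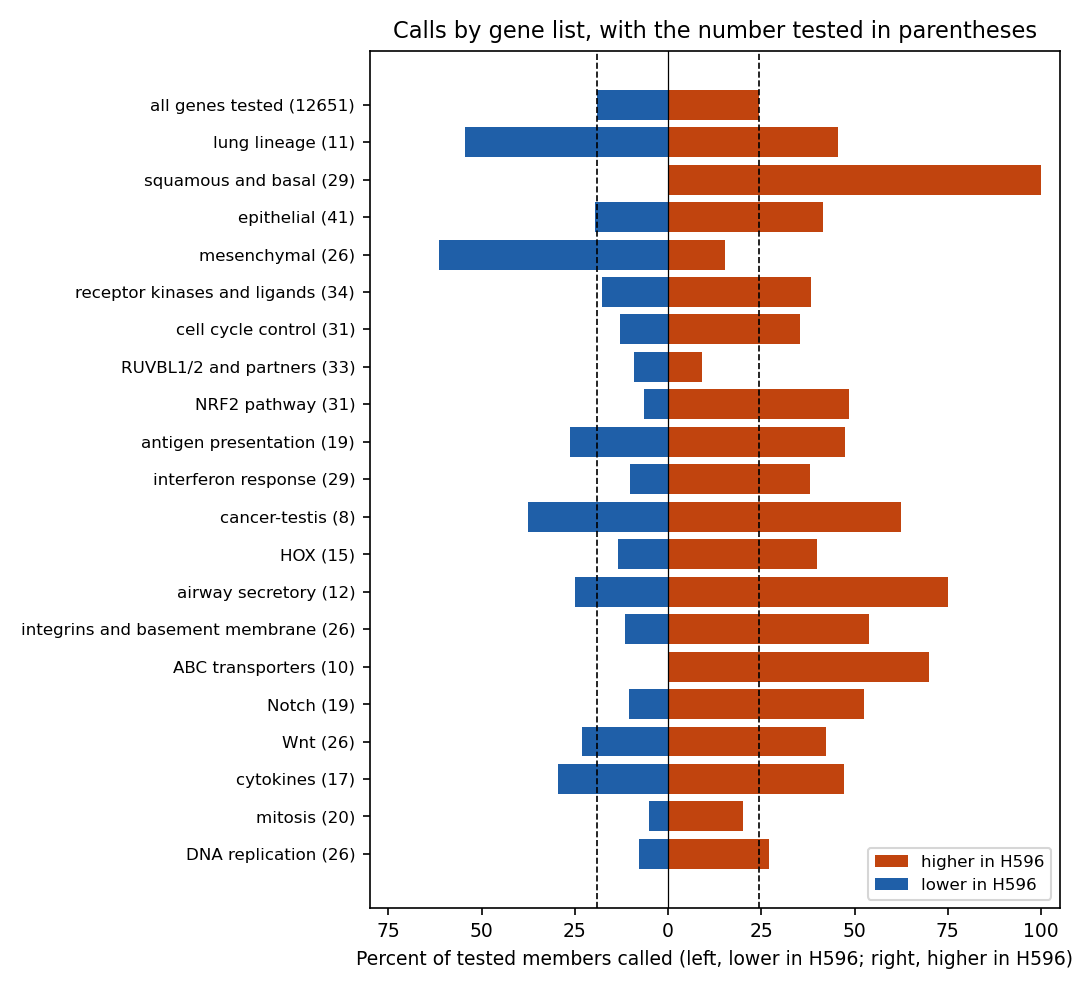
Percent of the tested members of each gene list that were called higher in H596 (right) or lower in H596 (left), with the number tested in parentheses. Dashed lines mark all genes tested, 24.3% higher and 19.2% lower; the squamous and basal list is at 100% higher, and RUVBL1/2 and partners and mitosis are at or under the dashed lines on both sides.

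Secretory genes of the airway were mostly higher in H596. Of 26 listed, 14 were in the table and 12 tested; 9 were higher and 3 lower, with a median of 3.29, and of the 4 at 1 FPKM or more in both lines 3 were higher and 1 lower. SLPI, a secreted antiprotease, had 257 and 127 FPKM in H596, against 0 and 0.0307 FPKM in H2009. AGR2, a disulfide isomerase of mucous cells, had 506 and 293 FPKM in H596, against 4.89 and 5.66 FPKM in H2009. LCN2 had 167 and 74.7 FPKM in H596, against 0.359 and 1.57 FPKM in H2009. SCGB1A1, the club-cell secretoglobin, had 104 and 30.4 FPKM in H596, against 0.152 and 0 FPKM in H2009. The 2 H596 libraries lay apart, replicate 1 being above replicate 2 each time, and H2009 was under 6 FPKM in all 4 genes. MUC1 had 93.9 and 31.96 FPKM in H596, against 6.53 and 4.05 FPKM in H2009, and MUC20 had 46.1 and 21.5 FPKM in H596, against 2.47 and 1.74 FPKM in H2009. MUC4, another membrane mucin, was lower in H596, with 1.15 and 0.408 FPKM in H596, against 8.11 and 3.61 FPKM in H2009, a difference of -1.90 ± 0.42.

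Integrins and basement membrane genes were tested in 26 of 37 listed. In H596, 14 were higher, 3 lower and 9 not called, with a median of 1.16; of the 19 in both lines, 8 were higher and 2 lower. ITGA6 and ITGB4 form the integrin of the hemidesmosome, and ITGA6 had 115 and 128 FPKM in H596, against 24.1 and 25.1 FPKM in H2009, while ITGB4 had 82.8 and 69.2 FPKM in H596, against 31.98 and 18.4 FPKM in H2009. COL17A1, the collagen of the same junction, had 87.7 and 91.02 FPKM in the H596 libraries, against 0.640 and 0.493 FPKM in the H2009 libraries. All 3 were higher, and COL17A1 by far the most, with 5.85 ± 0.17 against 2.26 ± 0.23 and 1.60 ± 0.34. ITGB8 had 13.5 and 14.4 FPKM in H596, against 0.228 and 0.188 FPKM in H2009, and ITGB1, the common beta chain, 334 and 503 FPKM in H596, against 87.9 and 156 FPKM in H2009. The type IV collagens COL4A1, COL4A2 and COL4A5 were between 5.78 and 12.4 FPKM in H596 and under 0.2 FPKM in H2009.

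Receptor tyrosine kinases and their ligands were tested in 34 of 52 listed, and 13 were higher in H596, 6 lower and 15 not called. Of the 24 at 1 FPKM or more in both lines, 6 were higher and 5 lower, against 20.1% and 14.7% of all such genes. EGFR had 112 and 106 FPKM in the H596 libraries, against 9.66 and 7.30 FPKM in the H2009 libraries. The H596 libraries were far above either H2009 library, a difference of 3.55 ± 0.35 with a limma adjusted p of 3.04e-05. FGFR2 had 11.8 and 11.2 FPKM in H596, against 0.00849 and 0 FPKM in H2009, and FGFR3 had 13.6 and 8.20 FPKM in H596, against 0.445 and 0.219 FPKM in H2009. AXL was the mirror image, with 3.23 and 5.56 FPKM in the H596 libraries, against 95.5 and 67.4 FPKM in the H2009 libraries, and a difference of -3.95 ± 0.34. Ligands divided in the same way. NRG1, neuregulin, had 17.7 and 29.4 FPKM in H596, against 1.87 and 1.43 FPKM in H2009. FGFBP1, which releases fibroblast growth factors from matrix, had 162 and 198 FPKM in H596, against 9.88 and 7.90 FPKM in H2009. PDGFA had 11.5 and 7.25 FPKM in H596, against 0.832 and 0.371 FPKM in H2009. EREG, epiregulin, a ligand of EGFR, had 0.210 and 0.202 FPKM in H596, against 49.2 and 49.4 FPKM in H2009. H596 was thus the higher line in EGFR and H2009 in its ligand EREG, with log2 differences of 3.55 and -5.38.

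Notch genes were tested in 19 of 25 listed, with 10 higher in H596, 2 lower and 7 not called; of the 10 at 1 FPKM or more in both lines, 4 were higher and 0 lower. The ligand JAG1 had 25.6 and 27.2 FPKM in H596, against 1.92 and 2.48 FPKM in H2009, and JAG2 had 21.5 and 11.8 FPKM in H596, against 0.759 and 0.234 FPKM in H2009. DLK2, a non-canonical ligand, had 31.4 and 10.8 FPKM in H596, against 0.390 and 0.224 FPKM in H2009. Of the targets, HES1 had 30.7 and 29.8 FPKM in H596, against 10.6 and 7.84 FPKM in H2009, and HEY2 had 3.06 and 1.84 FPKM in H596, against 0.0609 and 0.0571 FPKM in H2009. The receptor NOTCH1 had 9.74 and 5.39 FPKM in H596, against 2.38 and 1.06 FPKM in H2009; its call was lost without H596 replicate 1 (limma adjusted p = 0.0686) or H2009 replicate 2 (0.0638). Wnt genes were tested in 26 of 40 listed, with 11 higher, 6 lower and 9 not called; of the 17 in both lines, 6 were higher and 4 lower. Only 7 were called higher without H596 replicate 1 or without H2009 replicate 2, and 3 lower without H596 replicate 2. WNT10A had 24.9 and 12.4 FPKM in H596, against 2.32 and 1.34 FPKM in H2009, LGR4, a receptor of R-spondins, 38.3 and 29.9 FPKM in H596, against 7.11 and 8.49 FPKM in H2009, and the factor TCF7 0.219 and 0.123 FPKM in H596, against 4.99 and 2.90 FPKM in H2009. Cytokine genes were tested in 17 of 27 listed, with 8 higher and 5 lower; 13 of the 17 passed the filter through 1 line alone, and of the 4 in both lines 2 were higher and 1 lower. IL18 had 142 and 204 FPKM in H596, against 13.3 and 16.04 FPKM in H2009, TNFSF10, the death ligand TRAIL, 50.6 and 44.9 FPKM in H596, against 0.117 and 0.220 FPKM in H2009, and CXCL16 71.9 and 35.6 FPKM in H596, against 2.08 and 1.09 FPKM in H2009. IL1B had 12.4 and 23.6 FPKM in H596 and was listed at 0 in both H2009 libraries.

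Genes of the NRF2 pathway, which answers oxidative and electrophilic stress, were tested in 31 of 35 listed. In H596, 15 were higher, 2 lower and 14 not called, with a median of 0.63; of the 25 at 1 FPKM or more in both lines, 9 were higher and 2 lower. NFE2L2, which encodes NRF2 itself, had 78.8 and 86.2 FPKM in the H596 libraries, against 27.5 and 30.9 FPKM in the H2009 libraries. Its inhibitor KEAP1 had 37.7 and 32.9 FPKM in H596, against 33.97 and 25.03 FPKM in H2009, with a difference of 0.26 ± 0.23 that was not called; it is named for its role. ALDH3A1, an aldehyde dehydrogenase, had 402 and 227 FPKM in the H596 libraries, against 0.0514 and 0.226 FPKM in the H2009 libraries. AKR1C2 had 72.1 and 75.5 FPKM in H596, against 0.0975 and 0.0907 FPKM in H2009, and AKR1B10, another aldo-keto reductase, 41.3 and 52.99 FPKM in H596, against 0.134 and 0.281 FPKM in H2009. AKR1C1 and AKR1C2 are near-identical copies, and the split of reads between them is uncertain. GPX2, a glutathione peroxidase, had 92.3 and 38.5 FPKM in H596, against 0.0690 and 0.0598 FPKM in H2009, and SLC7A11, the cystine importer, 10.4 and 16.2 FPKM in H596, against 2.11 and 3.56 FPKM in H2009. GSR, glutathione reductase, had 77.98 and 83.7 FPKM in H596, against 24.96 and 23.5 FPKM in H2009. The differences of these enzymes ran from 1.70 for GSR to 8.06 for ALDH3A1. The list did not move as a whole. None of its 5 genes of NADPH supply was called, and NQO1, among the best known targets, had 58.3 and 61.99 FPKM in H596, against 75.9 and 82.9 FPKM in H2009, a difference of -0.39 ± 0.21 that was not called. TXNRD1 and HMOX1 were the 2 called lower, where TXNRD1 had 41.00 and 55.4 FPKM in H596, against 104 and 138 FPKM in H2009, and HMOX1 had 2.34 and 1.32 FPKM in H596, against 17.98 and 10.97 FPKM in H2009. KEAP1, NQO1, TXNRD1 and HMOX1 were named after their values were seen.

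Genes of class I antigen presentation moved in both directions. B2M, the invariant light chain, had 2213 and 1434 FPKM in the H596 libraries, against 70.8 and 51.5 FPKM in the H2009 libraries, and by mean FPKM it ranked 43 among the genes of H596. HLA-G, a heavy chain, had 0.0558 and 0 FPKM in H596, against 36.98 and 30.3 FPKM in H2009. The light chain was thus higher in H596 by 4.86 ± 0.38, and HLA-G was lower, at -5.07 ± 0.19, with limma adjusted p-values of 6.04e-06 and 7.93e-08. HLA genes resemble one another and vary between people, so reads may be lost or shared between them. Other heavy chains differed among themselves. HLA-B had 20.1 and 12.9 FPKM in H596, against 83.7 and 54.00 FPKM in H2009, and was called lower, HLA-C had 211 and 147 FPKM in H596, against 254 and 188 FPKM in H2009, and was not called, and HLA-E had 50.4 and 48.7 FPKM in H596, against 19.1 and 14.8 FPKM in H2009, and was called higher. HLA-B, HLA-C and HLA-E were named after their values were seen. PSMB9, an immunoproteasome subunit, had 42.6 and 23.1 FPKM in H596, against 2.79 and 4.56 FPKM in H2009. Over the list 19 of 26 genes were tested, with 9 higher, 5 lower and 5 not called; of the 14 in both lines, 7 were higher and 2 lower. CD74, the invariant chain of class II, had 12.4 and 10.1 FPKM in H596, against 0.0915 and 0 FPKM in H2009.

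Interferon-response genes were tested in 29 of 34 listed, with 11 higher in H596, 3 lower and 15 not called, and a median of 0.37. That is 48.3% called, near the 43.5% over all genes. Of the 25 in both lines, 7 (28%) were higher and 3 (12%) lower, against 20.1% and 14.7% of all such genes. The largest differences were in the oligoadenylate synthetases, sensors of double-stranded RNA. OAS1 had 19.4 and 13.02 FPKM in H596, against 0.0249 and 0.104 FPKM in H2009, and OAS3 had 27.5 and 18.7 FPKM in H596, against 0.537 and 0.510 FPKM in H2009. OAS2 had 10.00 and 6.18 FPKM in H596 and was listed at 0 in both H2009 libraries. IFIT2 had 22.9 and 20.96 FPKM in H596, against 2.90 and 3.57 FPKM in H2009. Other genes of the response did not move with them: IFIT3 had 21.00 and 27.9 FPKM in H596, against 23.4 and 36.9 FPKM in H2009, and ISG15, which was called lower, had 42.4 and 39.95 FPKM in H596, against 89.03 and 59.99 FPKM in H2009. IFIT3 and ISG15 were named after their values were seen. Cancer-testis genes, normally kept to germ cells, were on in 1 line or the other. Of 36 listed, 8 were in the table, and each passed the filter through 1 line alone. MAGEA3, MAGEA6, MAGEA12 and CSAG1, neighbours on the X chromosome, were between 25.7 and 66.8 FPKM in H596 and under 0.2 FPKM in H2009; MAGEA3, MAGEA6 and MAGEA12 are near-identical and their single values are uncertain. DDX43 and TEX15 were under 0.2 FPKM in H596 and between 8.28 and 15.6 FPKM in H2009. ABC transporters were tested in 10 of 17 listed, with 7 higher, 0 lower and 3 not called, and of the 7 in both lines 4 were higher; ABCC5 had 22.5 and 22.5 FPKM in H596, against 3.87 and 3.73 FPKM in H2009. HOX genes were tested in 15 of 39 listed, with 6 higher and 2 lower, and of the 9 in both lines 3 were higher and 2 lower. HOXC13, a factor of hair and nail epithelium, had 8.87 and 4.69 FPKM in H596, against 0 and 0.00830 FPKM in H2009.

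**Figure D4:**
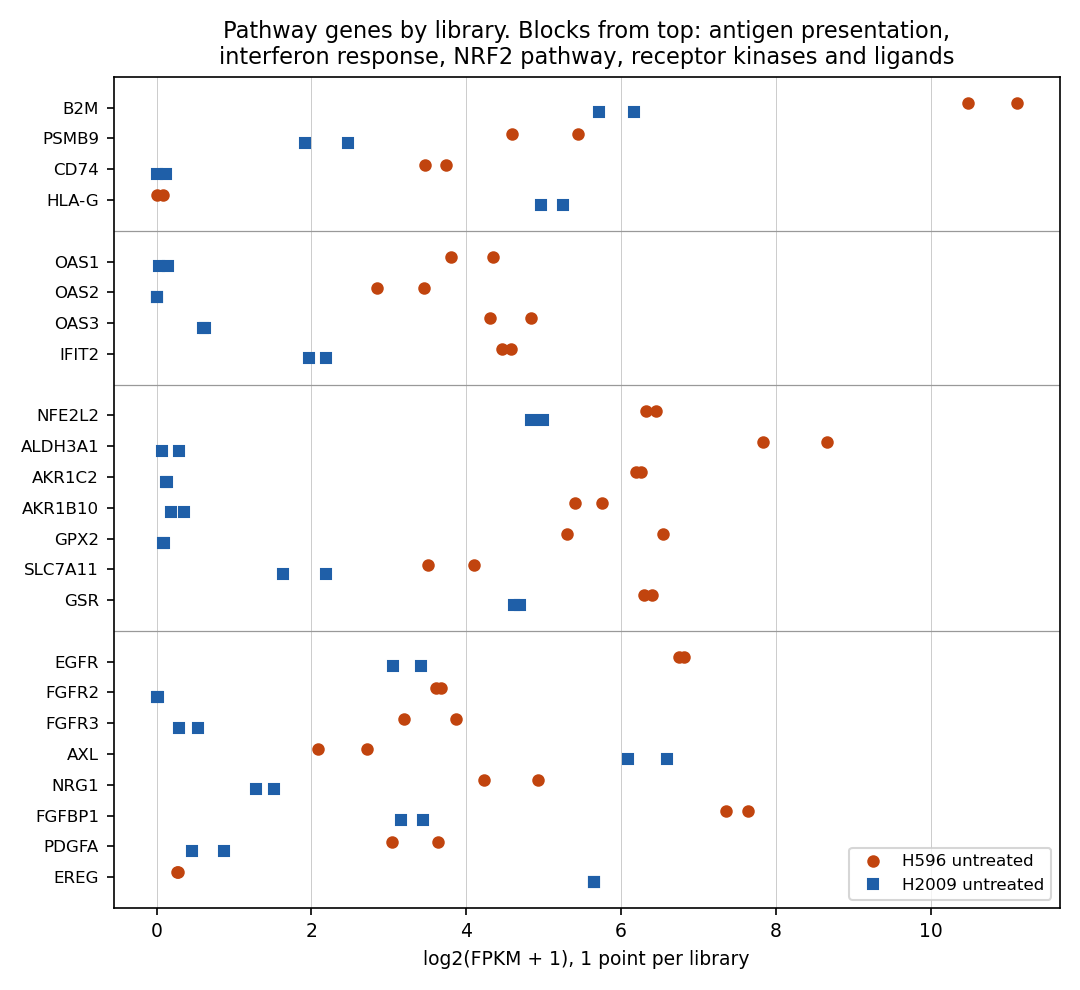
Values of each library, as log2(FPKM + 1), for genes of antigen presentation, the interferon response, the NRF2 pathway and receptor kinases with their ligands, with H596 as circles above H2009 as squares in each row. B2M and EGFR lie to the right in H596, while HLA-G, AXL and EREG lie to the right in H2009.

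The target of the study was abundant in both lines. RUVBL1 had 119 and 176 FPKM in the H596 libraries, against 92.4 and 110.0 FPKM in the H2009 libraries. The libraries of the lines did not overlap, but the difference of 0.52 ± 0.29, with a 95% interval of -0.13 to 1.16, did not pass the test (limma adjusted p = 0.178). Its partner RUVBL2 had 117 and 181 FPKM in the H596 libraries, against 231 and 225 FPKM in the H2009 libraries. Here H596 was the lower line, the difference being -0.65 ± 0.29 with a 95% interval of -1.30 to -0.00225 and a limma adjusted p of 0.097. In the non-targeting siRNA libraries, whose tables were normalized apart for each line, the order was the other way, with RUVBL2 at 166 and 122 FPKM in H596, against 45.1 and 46.7 FPKM in H2009. RUVBL1 kept its order there, with 112 and 123 FPKM in H596, against 87.8 and 64.3 FPKM in H2009. All 33 genes listed for the complexes of these ATPases were tested. In H596, 3 were higher, 3 lower and 27 not called, which is 18.2% called against 43.5% over all genes. All 33 were at 1 FPKM or more in both lines, with 9.09% higher and 9.09% lower, against 20.1% and 14.7% of all such genes. URI1, a subunit of the prefoldin-like module, had 46.2 and 74.8 FPKM in the H596 libraries, against 126 and 174 FPKM in the H2009 libraries, a difference of -1.32 ± 0.26 with a limma adjusted p of 0.00255. The other 5 calls, POLR2E, TRRAP, MORF4L1, INO80 and DMAP1, were each lost without 1 or more of the 4 libraries; MORF4L1 had the largest values, with 479 and 757 FPKM in H596, against 189 and 327 FPKM in H2009.

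Cell cycle control genes were tested in 31 of 34 listed, with 11 higher in H596, 4 lower and 16 not called. That is 48.4% called, near the 43.5% over all genes. Of the 27 in both lines, 7 (25.9%) were higher and 4 (14.8%) lower, against 20.1% and 14.7% of all such genes. Without H2009 replicate 1 the 4 lower fell to 1, and without H596 replicate 2 to 2. CCND1, cyclin D1, had 109 and 107 FPKM in H596, against 39.8 and 33.03 FPKM in H2009. CCND2 had 3.17 and 3.10 FPKM in H596, against 0 and 0.00450 FPKM in H2009. CDKN1A, the inhibitor p21, had 24.9 and 17.2 FPKM in H596, against 5.54 and 2.37 FPKM in H2009. TP73, a relative of p53, had 7.35 and 4.02 FPKM in H596, against 0.0895 and 0.0313 FPKM in H2009. RB1 was low in both lines at 1.82 and 2.13 FPKM in H596, against 3.84 and 5.29 FPKM in H2009, and its difference of -0.89 ± 0.21 lost its call without H2009 replicate 2 (limma adjusted p = 0.0526). Genes of mitosis and replication were all at 1 FPKM or more in both lines, so the same 20.1% and 14.7% stand beside them. Of 20 mitosis genes, 4 (20%) were higher, 1 (5%) lower and 15 not called. Of 26 replication genes, 7 (26.9%) were higher, 2 (7.69%) lower and 17 not called. Leaving out single libraries reduced the higher calls to as few as 1 in mitosis, without H596 replicate 2, or 2, without H2009 replicate 2, and to 4 in replication for each of the 4 libraries. BUB1, a kinase of the spindle checkpoint, was the mitosis gene that was lower, with 70.5 and 88.6 FPKM in H596, against 240.2 and 303 FPKM in H2009. RFC3, a subunit of the clamp loader, was lower with 36.2 and 49.7 FPKM in H596, against 109 and 137 FPKM in H2009, and its partner RFC4 higher with 122 and 117 FPKM in H596, against 50.6 and 66.6 FPKM in H2009.

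Some genes were on in a single line. A mean of at least 5 FPKM in H596 with under 0.1 FPKM in both H2009 libraries was found for 123 genes, 0.912% of those in the table, and in 99 of them H2009 stayed under 0.1 FPKM in all 6 of its libraries. The reverse held for 114 genes, 0.846%, with 83 staying under in all 6 H596 libraries. The most abundant of the first set were SERPINB2, SLPI, LINC01133, UGT1A6 and AKR1C2, and SERPINB2 had 184 and 229 FPKM in H596, against 0.0758 and 0.0741 FPKM in H2009. The most abundant of the second were SNRPN, VIM, G0S2, MEIOB and GSTP1. VIM was not near 0 in every H596 library of the study, since the non-targeting siRNA libraries, normalized apart for each line, had 6.10 and 5.96 FPKM in H596, against 73.4 and 18.4 FPKM in H2009. UGT1A6 shares its last exons with the other UGT1A genes, so its level is uncertain.

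Neighbouring genes often moved together. Of the genes tested, 12413 were placed in order along the chromosomes by their RefSeq symbols, and runs of at least 5 consecutive genes called in 1 direction were counted. There were 66 runs higher and 45 lower in H596. How many such runs the shares of called genes would give on their own was not tested. The longest held 36 genes, all lower and all past 2-fold, of which 32 are zinc finger genes named ZNF or their pseudogenes; most genes of this kind encode KRAB zinc finger repressors. Their median difference was -2.33. In both H596 libraries 19 of the 36 were under 0.1 FPKM, 9 of them listed at 0, while all 36 were between 1.73 and 51.2 FPKM in each H2009 library. The median of their H596 means was 0.0555 FPKM. Most of the 36 thus passed the filter through H2009 alone and had to be lower. ZNF85 had 0 and 0.152 FPKM in H596, against 17.3 and 21.3 FPKM in H2009. ZNF257 was listed at 0 in both H596 libraries and had 11.9 and 10.3 FPKM in H2009. ZNF714 kept the highest level of the run in H596, with 7.65 and 9.46 FPKM in H596, against 45.6 and 51.2 FPKM in H2009. The run stood in the other libraries too: all 36 were called lower with compound C and with compound B, and the 12 libraries of the lines overlapped in 0 of the 36. These zinc finger genes are recent copies of one another, so their single values are uncertain.

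**Figure D5:**
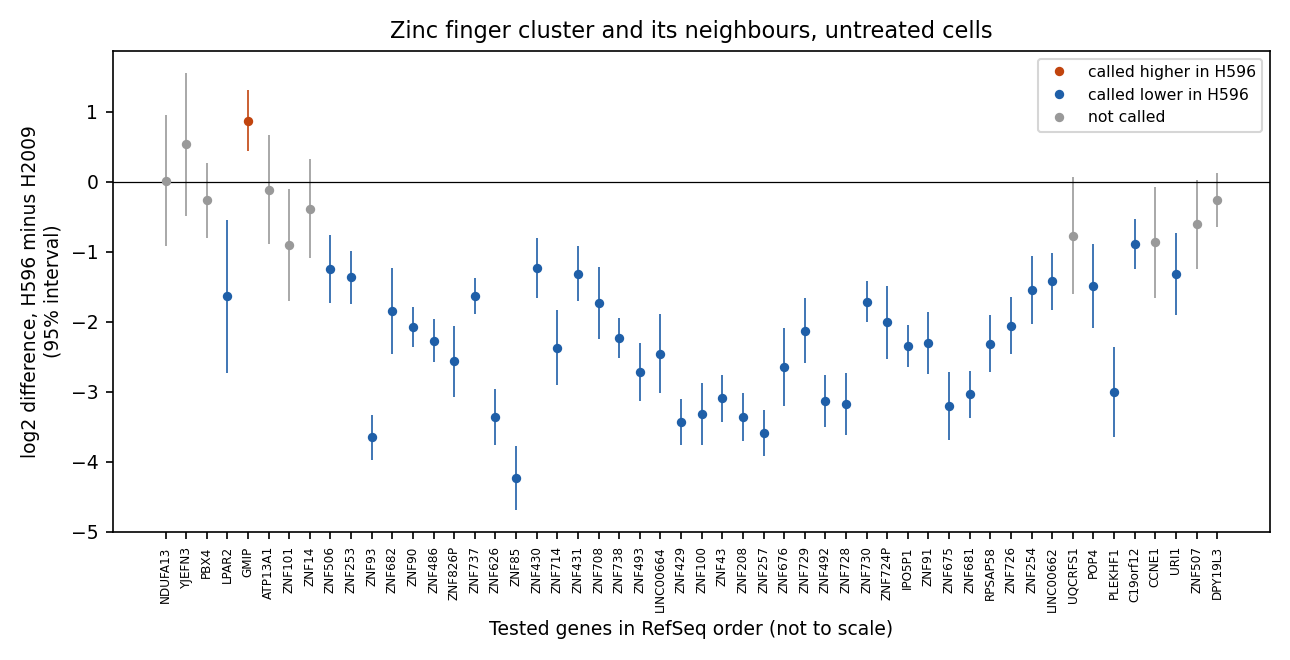
Log2 difference, H596 minus H2009, with its 95% interval, for the 36 genes of the longest run and the 8 tested genes on either side of it, in RefSeq order along the chromosome and not to scale. The run from ZNF506 to LINC00662 lies between -1.24 and -4.23, while neighbours such as NDUFA13 and ATP13A1 lie near 0.

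URI1 lies 6 tested genes beyond the end of this run, and POP4, PLEKHF1 and C19orf12, also beyond it, were called lower as well, while UQCRFS1 and CCNE1 in the same stretch were not called. Genes named from single-line sets and runs were chosen after their values were seen. Other long runs held related genes. A run of 10 higher genes held IVL, SPRR1A, SPRR3, SPRR1B, SPRR2A, S100A9, S100A8 and S100A7, at a median of 3.34. Several of them, such as IVL, SPRR1A, SPRR2A, S100A9 and S100A7, passed the filter through H596 alone and so could only be higher. A run of 10 higher held SERPINB5, SERPINB13, SERPINB7, SERPINB2, SERPINB10 and SERPINB8 beside BCL2. A run of 11 higher held TP63 and CLDN1 with BCL6, LPP and FGF12. The same limit holds for members of these runs such as SERPINB2, SERPINB13, TP63 and CLDN1. On the lower side, 12 genes of the PCDHA and PCDHB protocadherin clusters and 11 of the PCDHG cluster each formed a run, with medians of -1.58 and -1.52. Of the 26 clustered protocadherins tested, 22 passed the filter through H2009 alone and so could only be lower. Of the 3 at 1 FPKM or more in both lines, 1 was lower. A single cause of such runs was not tested.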

How the data were processed

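RNA of untreated H596 and H2009 cells was read from 4 of the 12 libraries of the compound table, in which the authors deposited FPKM per gene. Per the submitters' processing notes, CASAVA 1.8.2, TopHat2 2.0.12 and Cufflinks 2.2.1 were used with the human build hg19. No counts are given for these libraries, so the depth is unknown and no counting interval can be had. Genes with a mean of at least 1 FPKM in either untreated line were kept. Values were taken as log2(FPKM + 1), which understates the change of low genes, and tested with limma 3.58.1 (R 4.3.3) in a fit of all 12 libraries with 6 groups, an intensity trend in the variance and no replicate term. A call is a Benjamini-Hochberg adjusted p under 0.05 over all genes tested, and ± is the standard error. The fit was run on simulated data with independent noise in each library. That noise held no effect shared by replicates, so the run cannot show how the fit handles one. Genes of near-identical sequence may share reads.

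The comparison, its members and the gene lists were chosen with earlier results of these data known. Named genes were the 12 highest and 12 lowest called differences among genes whose libraries did not overlap between the lines, RUVBL1 and RUVBL2, the transcription factors and markers of the squamous and lung lists, and up to 4 called members of each role in the other lists, by size of difference. Exceptions are named as such, and a few genes that the rule names are not reported here. Promoters are from RefSeq, GRCh38.p14, matched by symbol. Alternatives were a pseudocount of 0.1, other filters, quantile normalization, smaller fits, a replicate term and leaving out each library.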

Additional observations from a re-analysis of the deposited data

How the results depend on the processing

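Of the 192 named genes called, 168 kept their call under every setting in which they were tested, 24 lost it in 1 or more, and 0 changed sign. Stricter filters left some named genes untested: with every gene listed at 0 in some library removed, 154 of the 194 named genes tested kept their result and 2 lost the call. Against 5505 calls, the count was 5516 with a pseudocount of 0.1, 5773 with no filter, 4987 with a filter on the mean of the 4 libraries, 5750 with quantile normalization, 4493 with only the 4 libraries fitted and 4025 to 4509 with 1 library left out; quantile normalization moved the median difference of all genes to -0.03. The number of 2-fold calls was 3579, 4292 with a pseudocount of 0.1 and 3219 to 3554 with 1 library left out; in the compound C and B libraries the calls ran from 3993 to 4972 and from 4374 to 5087 with 1 left out. The 2 libraries of each line share only a number with those of the other line; their replicate differences correlated at r = 0.713 over 12651 genes. With a replicate block the untreated calls were 8403 in the fit of 12 libraries and 8747 in that of 4, the compound C calls 8474 against 5614, receptor kinase genes called lower 10 and 10 against 6, and cell cycle genes called lower 7 and 9 against 4; mitosis genes called higher were 7 in the fit of 4 against 4. RUVBL1 and RUVBL2 were called only with the block. With every gene that has a 0 in some library removed, the lung genes called lower were 3 against 6, airway genes called higher 4 against 9, antigen presentation genes called lower 3 against 5, cytokine genes called higher 5 against 8, and the longest run 19 genes against 36. Wnt genes called higher were 7 with the filter on the mean of the 4 libraries; mitosis genes called higher were 2 with quantile normalization and 2 with only the 4 libraries, where replication genes called higher were also 2. With 1 library left out, the ranges were 4 to 9 for epithelial genes called lower, 1 to 4 for cell cycle genes called lower, 7 to 12 and 3 to 4 for Wnt genes called higher and lower, 1 to 3 for mitosis genes called higher and 4 to 4 for replication genes called higher. The cause of these shifts was not tested.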

Other observations

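The groups in this paragraph were picked after their values were seen. Genes named ZNF with a number were tested in 456 cases; 145 (31.8%) were lower in H596 and 47 (10.3%) higher, against 19.2% and 24.3% over all genes tested, and the median difference was -0.27. Of the 358 at 1 FPKM or more in both lines, 71 were lower and 32 higher. Without the members of the 36-gene run, 113 of 424 (26.7%) were lower and 47 (11.1%) higher, with a median of -0.21. None of the 123 genes restricted to H596 carries such a name, and 17 of the 114 restricted to H2009 do. Of 26 clustered protocadherins tested, 23 were lower and 0 higher; 22 of the 26 passed the filter through H2009 alone. Of the 3 in both lines, 1 was lower. Of 14 S100A genes, 8 were higher and 3 lower; of the 9 in both lines, 4 were higher and 2 lower. Of 8 SERPINB genes 6 were higher and 0 lower; of the 4 in both lines, 2 were higher.

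Imprinted genes were also read after their values were seen. Of 20 tested, 4 were higher in H596 and 10 lower, but 7 passed the filter through H2009 alone, and of the 11 at 1 FPKM or more in both lines 3 were higher and 3 lower. The lower ones included SNRPN, SNURF and IPW, which are neighbours, with IPW at 0.0136 and 0 FPKM in H596, against 5.10 and 6.00 FPKM in H2009. UBE3A, which lies beyond them and is transcribed in the opposite direction, was higher in H596, with 41.4 and 51.9 FPKM in the H596 libraries, against 3.89 and 5.04 FPKM in the H2009 libraries, and a difference of 3.12 ± 0.23. MEST had 0.201 and 0.164 FPKM in H596, against 34.7 and 30.9 FPKM in H2009, and PEG10 had 40.4 and 27.2 FPKM in H596, against 253 and 275 FPKM in H2009, both expressed from the paternal copy in many tissues and both lower in H596. PLAGL1 had 0 and 0.0113 FPKM in H596, against 9.59 and 6.59 FPKM in H2009, and FAM50B had 0.0458 and 0 FPKM in H596, against 22.97 and 17.1 FPKM in H2009. H19, expressed from the maternal copy, was higher in H596, as was NNAT, with 2.33 and 1.92 FPKM in H596, against 0.431 and 0.327 FPKM in H2009.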
